A study of Mus musculus with 34 samples.

Results

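The mouse forkhead transcription factor genes were examined across spermatogenesis. The 43 genes were chosen by symbol (Fox, a letter from a to s, a number and, in some names, a further letter). They were taken from the 21887 protein-coding genes of the annotation, and the choice used no measured value. Foxo1 fits this pattern but was left out by the rule, so it is in none of the forkhead counts. The study profiled open chromatin by ATAC-seq, in which a transposase cuts accessible DNA, at 4 stages of male germ cell development in mice with and without the histone acetyltransferase Gcn5. The cKO mice were C57BL6 with homozygous floxed Gcn5 alleles and Stra8-Cre, a Cre that is active in germ cells around the entry into meiosis, so other testis cells keep the gene. The WT mice were C57BL6 with intact Gcn5, and the SV129 mice, also with intact Gcn5, were of another strain. Samples were taken at a meiotic stage (MS), as round (RS) and as elongating (ES) spermatids, and as mature sperm (Sp). SV129 males were adults of 8 to 12 weeks, and 11 of them were pooled per collection; the age and pooling of cKO and WT males were not given in the sources used here. Germ cell fractions came from sedimentation at a stated purity of at least 85%, and sperm came from the cauda epididymis after lysis of somatic cells.

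Forkhead proteins share a winged-helix DNA-binding domain, and several of them can bind DNA within closed chromatin. Some act in nearly all cells, such as the FOXO factors that insulin signalling holds in the cytoplasm, the FOXK factors and the cell cycle activator FOXM1. Others specify lineages in the embryo, such as FOXA in endoderm, and a few are known from gonads or germ cells, such as FOXL2 in ovarian granulosa cells and FOXO3 in the oocyte.

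The 6 promoters below carry the contrasts described in the following paragraphs, and each is a 300-base window from RefSeq (GRCm38.p6), given 5′ to 3′ on the gene's strand, from 250 bases before the start site to 50 bases from it on. Capitals mark bases under a subnucleosome peak (a region called from short fragments) in both intact backgrounds, SV129 and WT, at the stage named here. Foxk2 (chr11:121259737-121260036, + strand, MS) lay under such peaks along its whole window. Foxj3 (chr4:119539411-119539710, + strand, MS) and Foxj2 (chr6:122819934-122820233, + strand, MS) were covered in part, and Foxp1 (chr6:99028249-99028548, - strand, MS) is an internal start of a very long gene. Foxd2 (chr4:114908849-114909148, - strand, RS) is the only lineage gene with a peak at its start in both intact backgrounds in round spermatids. Foxr1 (chr9:44440819-44441118, - strand) stands for the genes with no interval at an end in any list.
Foxk2: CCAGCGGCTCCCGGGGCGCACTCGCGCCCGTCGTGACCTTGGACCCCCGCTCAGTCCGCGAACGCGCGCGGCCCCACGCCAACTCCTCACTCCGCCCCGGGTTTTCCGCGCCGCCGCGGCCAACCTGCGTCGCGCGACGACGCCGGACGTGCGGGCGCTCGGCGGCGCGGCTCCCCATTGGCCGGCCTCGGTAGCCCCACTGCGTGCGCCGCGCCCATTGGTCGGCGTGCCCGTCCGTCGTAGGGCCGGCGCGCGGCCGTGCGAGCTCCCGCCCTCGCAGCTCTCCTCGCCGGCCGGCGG
Foxj3: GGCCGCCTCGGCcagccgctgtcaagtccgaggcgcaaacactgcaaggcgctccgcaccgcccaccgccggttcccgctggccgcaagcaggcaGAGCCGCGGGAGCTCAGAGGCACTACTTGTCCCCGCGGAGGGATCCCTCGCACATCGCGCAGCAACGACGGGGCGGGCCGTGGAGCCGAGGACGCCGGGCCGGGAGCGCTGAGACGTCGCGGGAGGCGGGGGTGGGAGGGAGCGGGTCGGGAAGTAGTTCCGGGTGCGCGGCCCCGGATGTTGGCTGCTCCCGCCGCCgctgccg
Foxj2: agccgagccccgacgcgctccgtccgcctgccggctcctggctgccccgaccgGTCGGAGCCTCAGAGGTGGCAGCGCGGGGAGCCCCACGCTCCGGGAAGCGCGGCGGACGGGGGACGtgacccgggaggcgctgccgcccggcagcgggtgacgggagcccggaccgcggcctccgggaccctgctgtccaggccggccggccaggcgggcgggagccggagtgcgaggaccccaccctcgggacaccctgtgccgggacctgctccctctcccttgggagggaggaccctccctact
Foxp1: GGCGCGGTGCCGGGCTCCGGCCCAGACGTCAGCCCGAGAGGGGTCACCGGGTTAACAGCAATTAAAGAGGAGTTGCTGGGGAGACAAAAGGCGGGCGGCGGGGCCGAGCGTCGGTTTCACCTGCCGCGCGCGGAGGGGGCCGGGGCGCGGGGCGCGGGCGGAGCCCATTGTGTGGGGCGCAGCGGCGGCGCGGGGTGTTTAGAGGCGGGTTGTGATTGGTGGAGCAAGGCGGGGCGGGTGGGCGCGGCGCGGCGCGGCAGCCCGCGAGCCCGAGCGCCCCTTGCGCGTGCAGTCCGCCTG
Foxd2: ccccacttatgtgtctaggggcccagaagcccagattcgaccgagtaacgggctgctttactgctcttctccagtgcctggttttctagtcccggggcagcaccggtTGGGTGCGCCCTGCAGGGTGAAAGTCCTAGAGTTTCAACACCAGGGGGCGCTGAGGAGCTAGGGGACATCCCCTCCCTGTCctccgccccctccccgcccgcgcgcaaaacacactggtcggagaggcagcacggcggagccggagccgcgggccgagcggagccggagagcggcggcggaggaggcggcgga
Foxr1: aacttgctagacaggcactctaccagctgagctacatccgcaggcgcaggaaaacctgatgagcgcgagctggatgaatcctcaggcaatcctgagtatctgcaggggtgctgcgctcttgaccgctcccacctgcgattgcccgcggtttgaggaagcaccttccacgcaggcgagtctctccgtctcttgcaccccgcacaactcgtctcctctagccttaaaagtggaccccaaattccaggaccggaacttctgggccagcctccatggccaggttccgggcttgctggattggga

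Of these windows, Foxk2 held 59 CpG dinucleotides, Foxp1 44 and Foxj3 42, while Foxj2 held 37, Foxd2 26 and Foxr1 16. The Foxk2 window contained the GC box GGGCGG on the reverse strand at positions -159 and 19 and CCAAT on the reverse strand at -74 and -34, counted as the first base relative to the start site. The Foxp1 window contained GGGCGG on the forward strand at -158, -95 and -19 and CCAAT on the reverse strand at -36. The forkhead-type letters TGTTTGC occurred on the reverse strand of the Foxj3 window at -216, outside the capitals, and TGTTTAC occurred in none of the 6.

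The deposited data were 24 interval lists, 1 subnucleosome and 1 nucleosome list for each of the 12 combinations of stage and background. The study held 34 libraries, and how they were merged into the lists is not given. There were 2 for each cKO and WT group, 4 for each SV129 germ cell fraction and 6 for SV129 sperm. The labels give the 4 as 2 replicates with 2 technical libraries each, so the germ cell fractions have 2 replicates in every background. Subnucleosome lists held 16087 peaks in cKO, 33060 in SV129 and 35822 in WT at MS, and 4075, 29243 and 56480 at RS in the same order of backgrounds. At ES they held 473 to 787 peaks, and in sperm 1127 in cKO, 10715 in SV129 and 3024 in WT. Nucleosome lists held 199111 to 591189 calls of 150 bp, except in sperm of SV129, with 13615, and of WT, with 8628, against 347951 in cKO sperm. Because each group had a single list, the spread between replicates is unknown, no test between conditions was possible and no p-value is given. Read depth is unknown, and the difference between SV129 and WT, which mixes strain with technical libraries and, in sperm, number of replicates, is given as the available measure of how far single lists differ. The deletion of Gcn5 could not be checked in interval lists. Among 16 Sertoli and Leydig cell markers, 0 had a peak at an end in cKO at MS, against 2 in SV129 and the same 2 (Amh and Cyp11a1) in WT. None of the 10 blood cell markers had one at MS or RS in any background, while 8 of 10 meiotic markers had one at MS in each. The round spermatid markers with a peak at RS numbered 2 of 10 in cKO, 10 in SV129 and 9 in WT.

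Forkhead genes had fewer subnucleosome peaks at their ends than protein-coding genes at large in all 6 lists of MS and RS, and the lowest counts were in cKO. A gene was counted where a peak overlapped, by at least 1 bp, the window of 500 bp to either side of its lower or upper annotated end. At MS, 4 of 43 forkhead genes had a peak in cKO, or 9.30% (Wilson 95% interval 3.68 to 21.6), against 33.1% of all genes. In SV129 there were 13, or 30.2% (18.6 to 45.1), against 45.0% of all genes, and in WT 15, or 34.9% (22.4 to 49.8), against 47.5%. At RS, 1 forkhead gene had a peak in cKO, or 2.33% (0.412 to 12.1), against 11.2% of all genes. The RS counts were 11 in SV129, or 25.6% (14.9 to 40.2), against 40.1%, and 14 in WT, or 32.6% (20.5 to 47.5), against 46.5%. The intervals cover counting error over genes only. In bulk samples, fewer cells with open chromatin at a gene and less signal per cell cannot be told apart. The interval of the forkhead share lay wholly below the share of all genes in cKO at MS and included it in the other 5 lists.

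**Figure D1:**
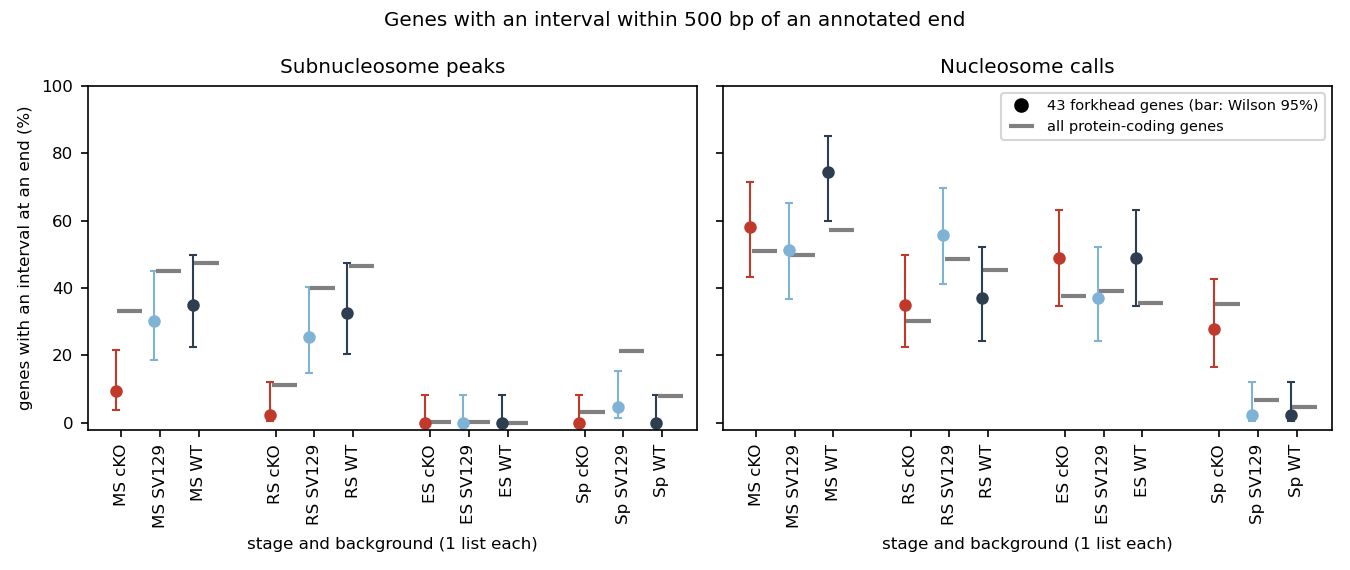
Share of genes with an interval within 500 bp of an annotated end, in percent, for subnucleosome peaks (left) and nucleosome calls (right), by stage and background. Points are the 43 forkhead genes with Wilson 95% intervals and grey lines are all protein-coding genes; the forkhead points for peaks lie under the grey lines at MS and RS, at 9.30% in cKO, 30.2% in SV129 and 34.9% in WT at MS.

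Most of these peaks were at genes on a list of broadly expressed forkhead genes, here called the broad list. The list was drawn up by role, and expression was not measured here. It holds Foxj2, Foxj3, Foxk1, Foxk2, Foxm1, Foxn2, Foxn3, Foxo3, Foxo4, Foxo6, Foxp1, Foxp2 and Foxp4. Of 13 such genes, 2 had a peak at MS in cKO (15.4%), 10 in SV129 (76.9%) and 11 in WT (84.6%). The shares of all genes at MS were 33.1%, 45.0% and 47.5% in the same order of backgrounds. At RS there were 1 (7.69%), 7 (53.8%) and 8 (61.5%), against 11.2%, 40.1% and 46.5% of all genes. The share of the broad list thus lay below that of all genes in cKO and above it in SV129 and WT. Of the 23 lineage genes, 0 had a peak at MS in cKO, 1 in SV129 (4.35%) and 2 in WT (8.70%). At RS there were 0, 2 (8.70%) and 4 (17.4%), and each lineage share lay below that of all genes.

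Foxk2, like Foxk1 a forkhead factor that represses autophagy genes, had the most covered bases of the family. At MS, 393 bp of its end windows lay under peaks in cKO, 628 bp in SV129 and 826 bp in WT. At RS it had 0 bp in cKO, 259 bp in SV129 and 467 bp in WT, and in sperm 87 bp in SV129 and 0 bp in the other backgrounds. Its promoter printed above was covered over all 300 bp in cKO, SV129 and WT at MS. Foxk1 had 0 bp in cKO at MS, 303 bp in SV129 and 423 bp in WT. At RS it had 0, 191 and 239 bp in the same order, so the intact lists both covered it at both stages and neither cKO list did.

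Foxn2 had a peak at the lower end in both intact lists at both stages and in neither cKO list. Its covered length at MS was 0 bp in cKO, 271 bp in SV129 and 786 bp in WT, and at RS 0, 115 and 769 bp. In sperm it had 90 bp in SV129, and Foxn2 and Foxk2 were the 2 forkhead genes with a sperm peak at an end in any list. Foxn3, a checkpoint regulator, had 0 bp in cKO, 168 bp in SV129 and 166 bp in WT at MS. At RS its lengths were 0, 114 and 175 bp. Foxm1, which activates mitotic genes, had 0, 179 and 338 bp at MS in the same order and at RS 596 bp in WT alone. Its lower end lies 83 bp from the end of Rhno1, so a peak there cannot be assigned to 1 gene.

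The Foxj genes have described roles in the germ line and in cilia. Foxj3, which mouse spermatogenesis requires, had 84 bp in cKO at MS, 414 bp in SV129 and 622 bp in WT. The RS lengths were 0, 311 and 520 bp. The cKO peak at Foxj3 ran from position -329 to position -246 relative to the lower end, outside the gene, and reached 5 bp of the printed window, whereas SV129 and WT each had a peak over the end. Foxj2, found in spermatocytes, had 0 bp in cKO, 187 bp in SV129 and 186 bp in WT at MS, and at RS 146 bp in WT alone. Foxj1, the activator of motile cilia genes, had 156, 437 and 493 bp at MS and 0, 123 and 210 bp at RS. For both Foxj1 and Foxj3 the counts of bases in cKO were below both intact lists at both stages.

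Foxp1, a regulator of lymphoid, heart and lung development, was the only forkhead gene with a peak at an end in cKO at RS. That peak covered 78 bp in cKO, against 150 bp in SV129 and 416 bp in WT, while at MS the end had 0 bp in cKO, 212 bp in SV129 and 253 bp in WT. Foxp2, known from the development of brain circuits, had 0 bp in cKO, 209 bp in SV129 and 428 bp in WT at MS and 0 bp in all 3 at RS. Foxp4 had 161 bp in WT at MS and 0 bp in every other subnucleosome list. Foxo4, on the X chromosome, had 0 bp in cKO, 114 bp in SV129 and 192 bp in WT at MS, and at RS 80 bp in SV129 alone. Foxo3 and Foxo6 had no peak at an end in any list.

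Among the genes on the germ cell and gonad list, Foxh1, a partner of SMAD proteins in Nodal signalling, kept nearly the same length in all backgrounds at MS. It had 346 bp in cKO, 397 bp in SV129 and 385 bp in WT. At RS it had 0 bp in cKO, 274 bp in SV129 and 346 bp in WT. Its upper end is 29 bp from the end of Ppp1r16a, so the peak may belong to either gene. Foxl2, Foxr1, which is active in oocytes, and the X-linked Foxr2 had no peak at an end in any list, nor had Foxp3, the X-linked factor of regulatory T cells.

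The lineage genes with a peak were few and differed between the stages. Foxq1, a gene of hair development, had 260 bp in WT at MS alone. At RS, Foxi1, a factor of the inner ear and of kidney and epididymal epithelium, had 0 bp in cKO, 167 bp in SV129 and 200 bp in WT. Its peak lay 56 to 255 bp inside the lower end in WT, which is the 3′ end of this gene. Foxd2 had 0, 81 and 137 bp at RS, and Foxd4 (152 bp) and Foxi3 (89 bp) had a peak at RS in WT alone.

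**Figure D2:**
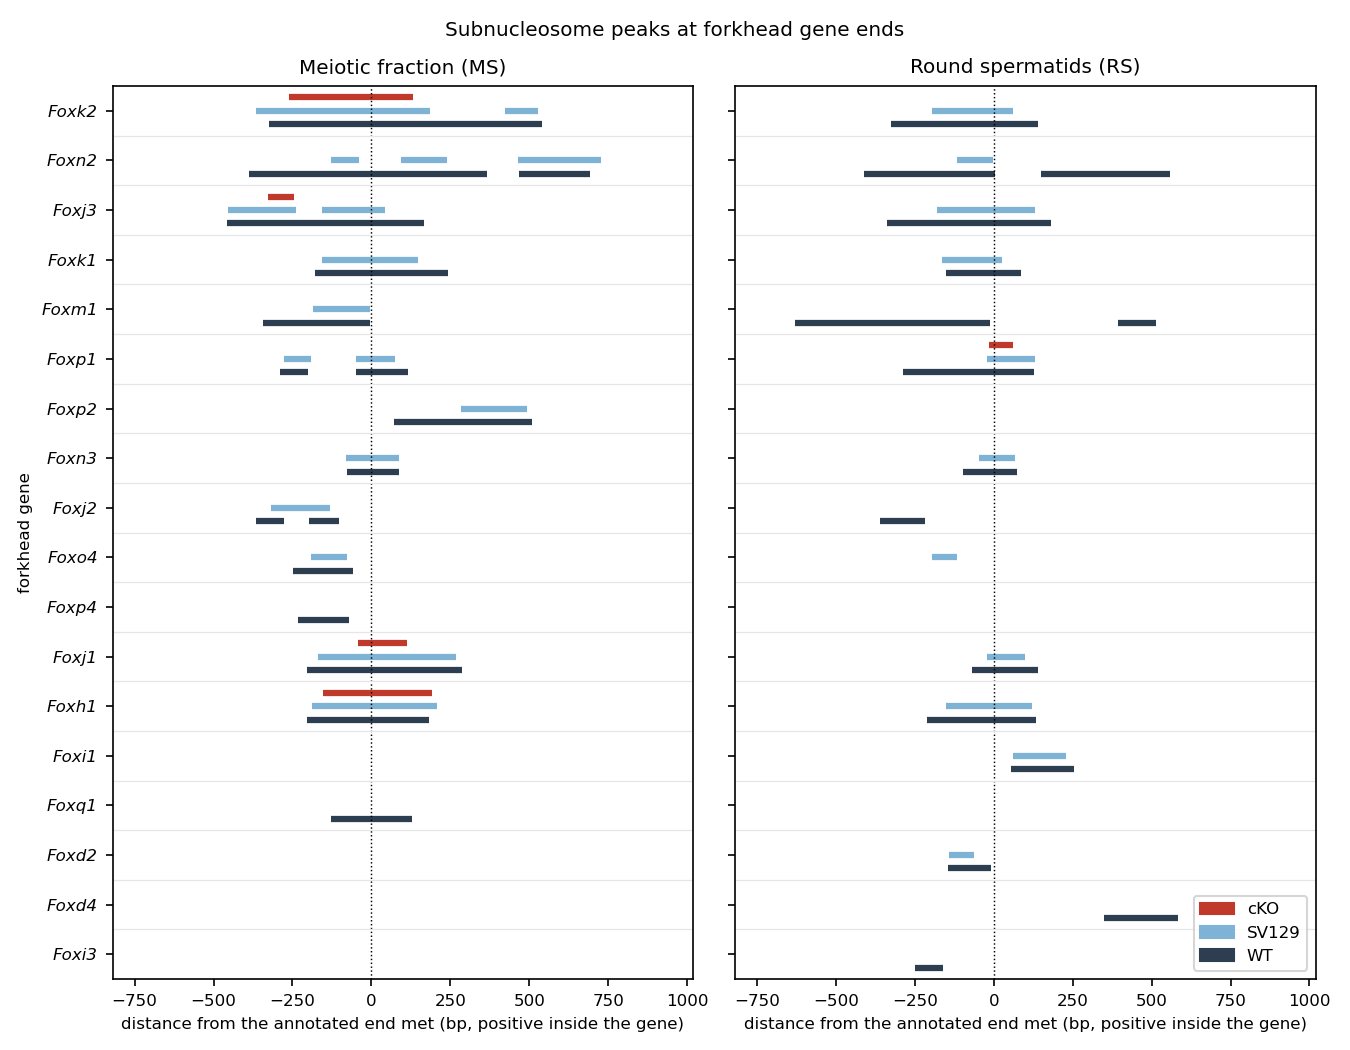
Position of each subnucleosome peak at the ends of 18 forkhead genes that had one at MS or RS, in bp from the annotated end it met, positive inside the gene. Colours are backgrounds; cKO bars appear at Foxk2, Foxj3, Foxj1 and Foxh1 at MS and at Foxp1 at RS, and most bars of the intact backgrounds span or adjoin the end.

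Set gene by gene against WT, cKO had no peak at an end of most forkhead genes that had one there. Some of these had a cKO peak outside the end windows at MS, such as Foxp1 at an internal start and Foxp2 at 646 bp from an end. At MS, 11 of the 15 genes with a WT peak had none in cKO (73.3%), against 30.8% of all genes with a WT peak, and Foxh1, Foxj1, Foxj3 and Foxk2 had one in both. SV129 lacked 2 of the 15 (13.3%; Foxp4 and Foxq1), against 9.58% of all genes. The genes with a cKO peak and none in WT were 0 of 28 forkhead genes, against 0.375% of all genes. At RS, cKO lacked 13 of 14 (92.9%), against 76.0% of all genes, and SV129 lacked 4 of 14 (28.6%), against 15.9%. Of the 13 genes with a peak in both intact lists at MS, 9 had none in cKO (69.2%), against 24.4% of all genes, and at RS 9 of 10, against 71.5%. Of the 28 forkhead genes with no peak at an end in either intact list, none had one at an end in cKO at MS, against 0.172% of all such genes. Of the 4 genes kept at MS, Foxh1, Foxj1 and Foxj3 have an end within 1000 bp of another gene's end, and without genes of that kind 1 of 37 had a peak in cKO (Foxk2, 2.70%), against 27.1% of all genes without a shared end.

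The peaks of forkhead genes ranked lower in the WT lists than those of genes at large, and rank moved with presence in cKO. By the authors' deposited score, the best WT peak of the forkhead genes had a median rank at 44.7% of the MS list, counted from the top, against 24% for all genes with a peak, and at RS 38.3% against 20%. The genes kept in cKO at MS had a median rank of 10.3% and those not kept 54.2%, against 15.5% and 54.8% for all genes. The WT lists were divided by score into 4 equal groups. In the top group at MS, 1 of 4 forkhead genes had no cKO peak (Foxn2), against 5.98% of all genes. In the next 3 groups, in order of score, 3 of 4, 5 of 5 and 2 of 2 had none, against 38.6%, 74.3% and 92.2% of all genes. At RS the top group held 6 forkhead genes, of which 5 had no cKO peak, against 60.7% of all genes, and all 8 in lower groups had none, against 95.6%, 99.8% and 100% of all genes. With the WT list cut to its top-scoring peaks, as many as cKO had, 8 forkhead genes had a WT peak at MS and 4 of them had none in cKO, against 15.0% of all genes, and 0 had a WT peak at RS. The part that rank and list length play in the cKO counts was not tested.

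**Figure D3:**
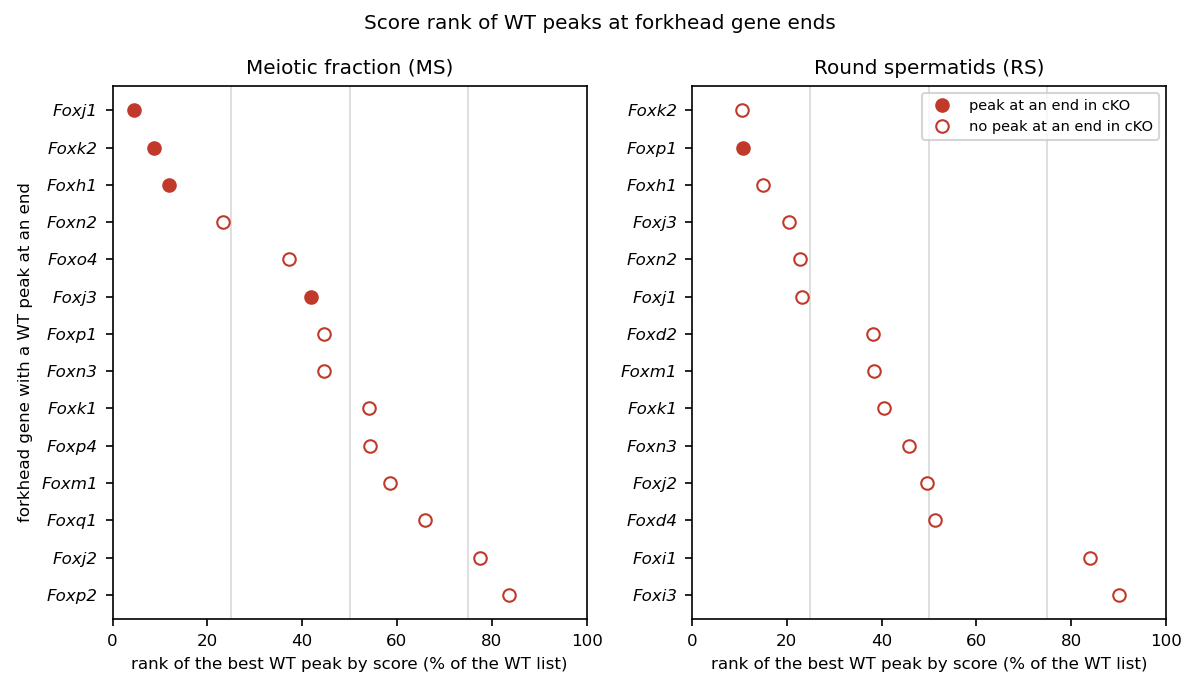
Rank of the best WT peak at an end of forkhead genes, in percent of the WT list ordered by the authors' score (0 is the top), at MS (left) and RS (right). Filled points also had a peak in cKO; at MS these are Foxj1, Foxk2 and Foxh1 near the top and Foxj3 at 41.8%, and at RS Foxp1 at 10.8%.

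Across stages, peaks at forkhead gene ends were found at MS and RS and, in SV129, at 2 genes in sperm. In WT, Foxo4, Foxp2, Foxp4 and Foxq1 were among the genes with a peak at MS and not at RS, and Foxd2, Foxd4, Foxi1 and Foxi3 had one at RS and not at MS. In SV129, Foxj2, Foxm1 and Foxp2 were among those with one at MS and not at RS, and Foxd2 and Foxi1 had one at RS and not at MS, so Foxd2 and Foxi1 appeared at RS in both intact backgrounds. At ES, 0 of 43 forkhead genes had a peak in any background, which allows a share of up to 6.98%, and the share of all genes was 0.0959% in cKO, 0.0868% in SV129 and 0.0457% in WT. In sperm the counts were 0 in cKO, 2 in SV129 and 0 in WT, against 3.34%, 21.2% and 8.00% of all genes. Each 0 again allows up to 6.98% by that limit, while its Wilson interval reaches 8.20% and so includes the 8.00% of WT sperm. The 2 in SV129 sperm were 4.65% of the forkhead genes (1.28 to 15.5). In all, 24 forkhead genes (55.8%) had no peak at an end in any list, against 45.2% of all genes.

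Nucleosome calls, which mark DNA protected at nucleosome size, were found at forkhead ends at shares near those of genes at large in most lists. At MS, 25 forkhead genes had a call in cKO (58.1%, 43.3 to 71.6), against 51.1% of all genes. In SV129 there were 22 (51.2%, 36.8 to 65.4; all genes 49.7%) and in WT 32 (74.4%, 59.8 to 85.1; all genes 57.3%). At RS, 15 had a call in cKO, 24 in SV129 and 16 in WT, against 30.3%, 48.5% and 45.5% of all genes. At ES the counts were 21, 16 and 21, against 37.5%, 39.2% and 35.7%. The WT share at MS lay above that of all genes with an interval that excluded it, while the other shares of MS, RS and ES had intervals that included it. SV129, with intact Gcn5 as in WT, had fewer such genes than WT at MS and more at RS. In a gene by gene comparison at MS, cKO had no call at 12 of the 32 genes with one in WT (37.5%, against 20.6% of all genes), and SV129 at 10 of 32 (31.2%, against 17.8%).

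Many forkhead genes had a nucleosome call and no subnucleosome peak. At MS, 22 forkhead genes had a call and no peak in cKO, 9 in SV129 and 17 in WT, or 51.2%, 20.9% and 39.5%, against 21.3%, 8.84% and 12.6% of all genes. Calls with or without a peak were also counted by role. Of 23 lineage genes, 11 had a call at MS in cKO (47.8%), 8 in SV129 (34.8%) and 17 in WT (73.9%). The shares of all genes with a call at MS were 51.1%, 49.7% and 57.3%. At RS the lineage counts were 7 (30.4%), 14 (60.9%) and 5 (21.7%), against 30.3%, 48.5% and 45.5% of all genes. Of the 13 genes on the broad list, 11 (84.6%), 12 (92.3%) and 13 (100%) had a call at MS. At RS, 6 (46.2%), 8 (61.5%) and 9 (69.2%) of them had a call. Foxc1, a factor of eye and vessel development with no peak at an end in any list, had 185 bp under calls in cKO at MS, 340 bp in SV129 and 576 bp in WT, with 197, 489 and 499 bp at RS in that order of backgrounds. Foxs1 had 210, 0 and 506 bp at MS, and Foxa2, an endoderm factor, had 190 bp in cKO at MS and 0 bp in SV129 and WT. Foxn2, in contrast, had calls over 514 to 645 bp in cKO at MS and RS, 490 to 528 bp in SV129 and 575 to 608 bp in WT.

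Some genes with calls in both intact lists had none in cKO. At MS these were 7 of 22 forkhead genes (31.8%), against 12.0% of all genes. Foxh1 had 0 bp under calls in cKO, 510 bp in SV129 and 687 bp in WT, and Foxi3, a factor of ectodermal organs, had 0, 490 and 365 bp. The other 5 were Foxb2, Foxc2, Foxd1, Foxo4 and Foxq1. At RS they were 8 of 13 (61.5%), against 45.2%, and included Foxk2 with 0, 420 and 201 bp, Foxj1 with 0, 150 and 400 bp, and Foxp1 with 0, 181 and 388 bp. In the other direction, 5 genes had a call in cKO at MS and in neither intact list, of 11 without an intact call (45.5%, against 11.1% of all genes). These were Foxi2 (266 bp), Foxa2 (190 bp), Foxi1 (178 bp), Foxn4 (150 bp) and the X-linked Foxr2 (71 bp). At RS the 4 of this kind were Foxn1 (345 bp), the factor of thymic epithelium, Foxk1 (205 bp), Foxs1 (187 bp) and Foxn4 (177 bp), of 16 without an intact call, against 10.5% of all genes. At ES, 5 of 10 genes with calls in both intact lists had none in cKO, against 46.9% of all genes, and 7 of 16 without an intact call had one in cKO, against 24.9%.

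Sperm differed most between backgrounds in nucleosome calls. In cKO sperm 12 forkhead genes had a call at an end (27.9%, 16.7 to 42.7), against 35.2% of all genes, while SV129 and WT sperm each had 1 (2.33%, 0.412 to 12.1), against 6.79% and 4.62%. The gene in SV129 was Foxj3, with 190 bp, and in WT Foxi2, with 181 bp. In cKO sperm the longest covered lengths were 398 bp at Foxn2, 390 bp at Foxj3, 370 bp at Foxd2, 320 bp at Foxi3 and 250 bp at Foxp4. Foxp1 (210 bp), Foxo3 and Foxs1 (197 bp each), Foxj1 (173 bp), Foxa3 and Foxm1 (150 bp each) and Foxi1 (61 bp) followed. Of the 41 forkhead genes with no call in either intact sperm list, 11 had one in cKO (26.8%), against 30.7% of all genes, so the forkhead share was near that of genes at large.

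**Figure D4:**
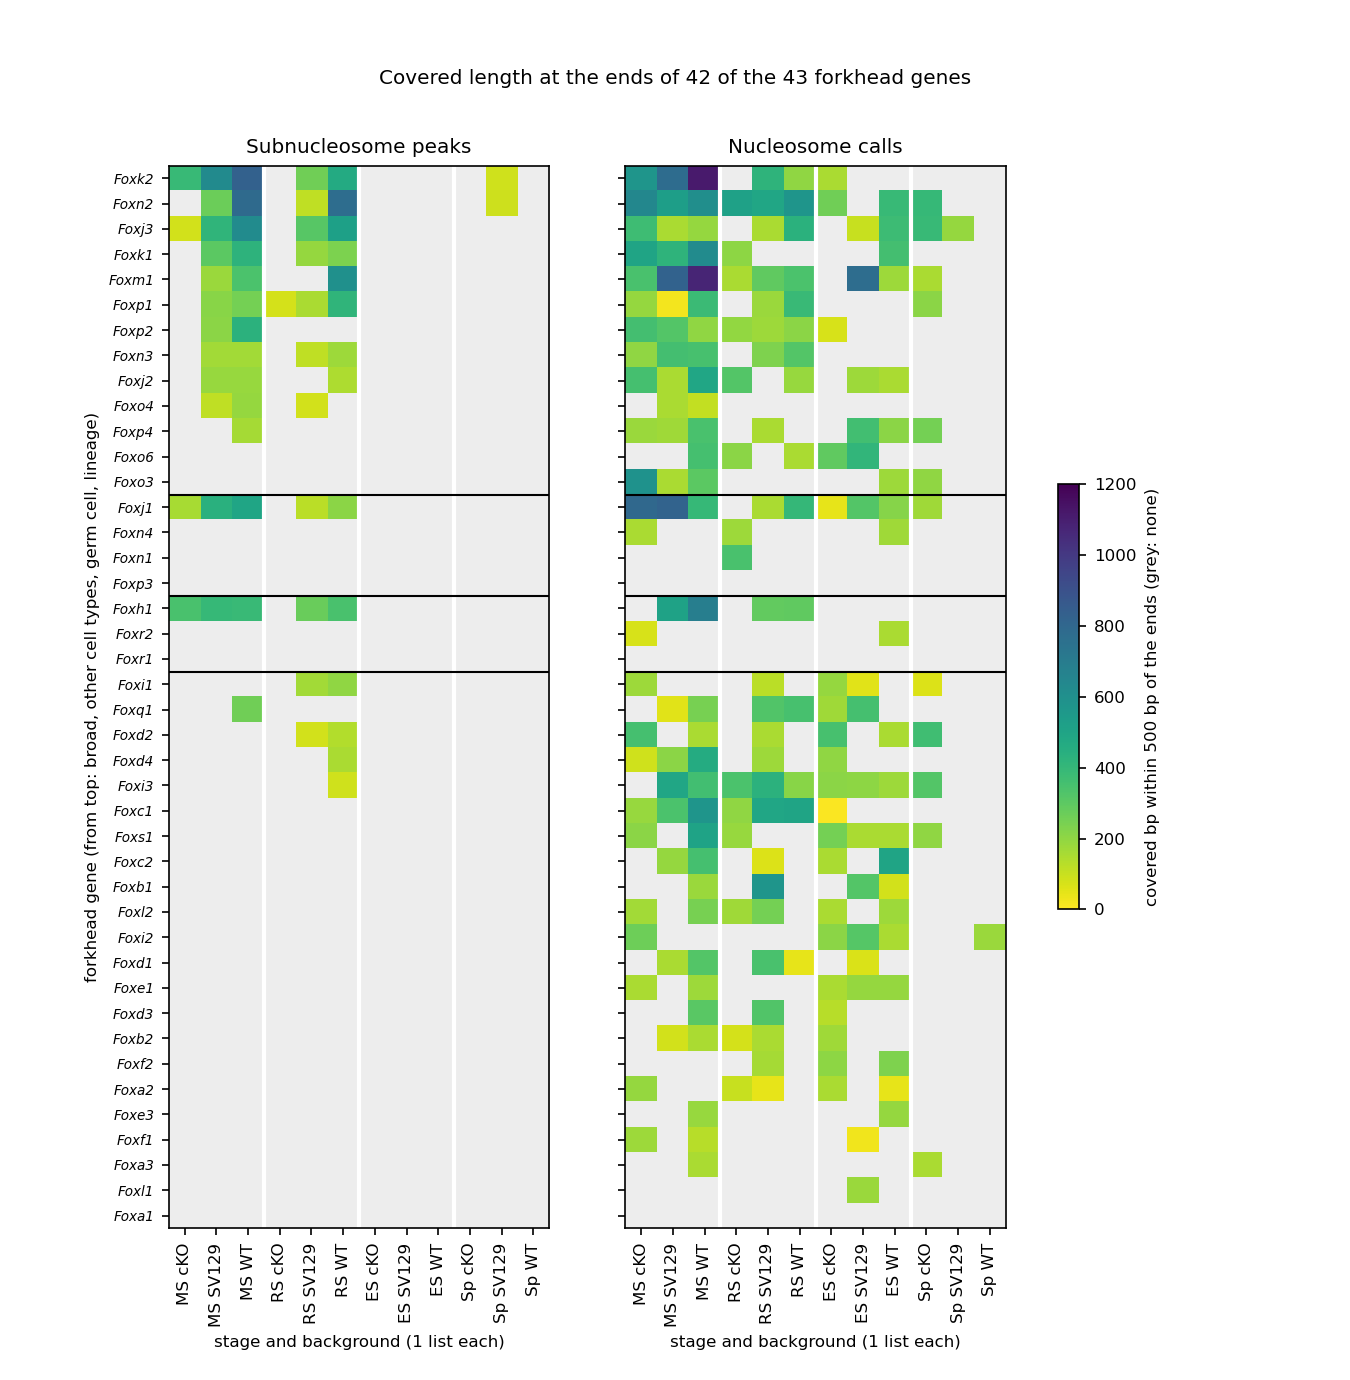
Bases covered within 500 bp of the annotated ends of 42 of the 43 forkhead genes, by stage and background, for subnucleosome peaks (left) and nucleosome calls (right); grey is 0 bp. Peaks lie mainly in the upper block, the genes of the broad list, in the SV129 and WT columns of MS and RS. At RS, 7 of 13 genes of that block have a peak in SV129 and 8 in WT. Calls reach most lineage genes and the cKO sperm column.

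Places of calls were compared as well as counts. Of the 109 calls at forkhead ends in cKO at MS, 57.8% overlapped a WT call of the same stage, against 84.0% for all gene ends, and of the 97 calls in SV129, 90.7% did, against 91.1%. At RS the shares were 30.2% of 53 calls in cKO, against 59.7%, and 45.8% of 72 in SV129, against 77.5%. At ES they were 24.4% of 41 in cKO and 12.5% of 48 in SV129, against 13.5% and 12.7% for all gene ends. Calls of 1 gene are not independent of each other, and the WT lists differ in length between stages.

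Peaks that reached gene bodies, beyond the end windows, are given next. A peak was counted from 1 bp in the body on, also where it met an end window as well. At MS, 6 forkhead genes had a body peak in cKO (14.0%), 13 in SV129 (30.2%) and 17 in WT (39.5%). The shares of all genes were 16.9%, 29.6% and 32.9%. The gene from 1 annotated end to the other, without the 500 bp outside it, was also counted. The shares with a peak there at MS were 34.9% in SV129, against 57% of all genes, and 44.2% in WT, against 60.8%. At RS the body counts were 0, 7 and 14, against 4.09%, 26.1% and 37.1%. For the 43 genes each body count of 0 given here allows a share of up to 6.98%. At ES no forkhead gene had a body peak, against 0.457%, 0.864% and 0.480% of all genes, and in sperm 0 had one in cKO, 5 in SV129 and 0 in WT, against 0.845%, 13.2% and 3.64%. The 9 body peaks of cKO at MS lay in Foxa3, Foxc1, Foxj2, Foxn3 and Foxq1, with 1 each, and in Foxp1, with 4. The peak in Foxj2 (177 bp, chr6:122826522-122826698) met no SV129 or WT peak of that stage. An SV129 sperm peak of 198 bp (chr6:122826466-122826663) covered much of the same place in Foxj2. In Foxn3 the cKO peak (chr12:99311490-99311635) matched peaks of 132 bp in SV129 and WT, far from either end.

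Nucleosome calls inside gene bodies differed most between backgrounds in sperm. At MS, 25 forkhead genes had a body call in cKO, 18 in SV129 and 28 in WT, against 56.1%, 41.4% and 60.1% of all genes. At RS there were 24, 25 and 17, against 51.7%, 50.3% and 43.1%, and at ES 31, 31 and 32, against 70.2%, 71.5% and 71.9%. In sperm the counts were 16 in cKO, 1 in SV129 and 2 in WT, against 59.5%, 4.11% and 4.43%. Per 100 kb of gene body, forkhead genes held 19.1 calls in cKO, 7.75 in SV129 and 18.0 in WT at MS, against 13.3, 7.51 and 14.4 over all genes. In sperm the numbers were 13.8, 0.0473 and 0.0946, against 13.8, 0.340 and 0.228.

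Foxp1 had peaks both at its annotated upper end and at an internal start. The gene spans 597 kb on the minus strand of chromosome 6, and the start at position 99028298 lies 494 kb inside its upper end. At MS the peak over this internal start was 291 bp long in cKO, 422 bp in SV129 and 473 bp in WT, and covered 248, 300 and 300 bp of the printed window. At RS there was none in cKO, while the peak was 253 bp long in SV129 and 384 bp in WT. The upper end of the gene had the reverse order in cKO, with no peak at MS and one of 78 bp at RS.

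Shares differed between classes of gene length. The median length was 4796 bp for forkhead genes and 17169 bp for all protein-coding genes, and 22 of the 43 were under 5 kb. Of those 22, 2 had a peak at an end at MS in cKO (9.09%), 3 in SV129 (13.6%) and 4 in WT (18.2%), against 17.2%, 25.3% and 27.4% of all genes under 5 kb. Of the same 22, 12 had a nucleosome call in cKO (54.5%), 10 in SV129 (45.5%) and 18 in WT (81.8%), against 33.1%, 29.5% and 36.2%. Body peaks at MS were found in 2, 5 and 7 of the 22 (9.09%, 22.7% and 31.8%), against 2.94%, 6.69% and 7.79%. Of the 9 forkhead genes of 30 kb and over, 2 had an end peak at MS in cKO (22.2%), 7 in SV129 (77.8%) and 8 in WT (88.9%), against 38.9%, 52.8% and 56.2%. Of the 12 in between, 0, 3 and 3 had one, against 36.9%, 49.3% and 51.4%. Nucleosome calls at MS were found at 4 of those 12 in cKO, 3 in SV129 and 5 in WT, against 53.6%, 53.3% and 60.9%. All 9 of the longest class had a call in each background, against 60.0% in cKO, 58.8% in SV129 and 67.0% in WT. At MS, forkhead shares of calls at ends were thus above those of all genes in the shortest and longest classes and below them in the middle one. This order did not hold in every list of RS and ES. All 9 genes of the longest class were on the broad list, and most lineage genes were under 5 kb. Role and length were thus not separated here.

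A wider window changed the picture at MS. Within 1000 bp of an end, 9 forkhead genes had a peak in cKO, 17 in SV129 and 22 in WT. The cKO share was then 20.9%, against 35.8% of all genes, and the SV129 share 39.5%, against 48.6%. The WT share was 51.2%, the same to 3 digits as that of all genes. The genes added in WT were Foxa3, Foxc2, Foxd4, Foxe3, Foxn1, Foxo3 and Foxo6, and in cKO Foxa3, Foxo3, Foxo6, Foxp2 and Foxq1. The median distance from an end to the nearest peak was 13048 bp in cKO, 4233 bp in SV129 and 939 bp in WT at MS, with 134675, 5144 and 1610 bp at RS in that order of backgrounds.

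The promoter sequences were rich in CpG, and still few had a peak. The RefSeq table held 32 promoter windows of 27 of the 43 genes and 21263 windows of 17492 protein-coding genes. Their median GC content was 62.8%, against 56.3% for all windows, and the median observed over expected CpG ratio was 0.674, against 0.567. A ratio of 0.6 or more was found in 20 forkhead windows (62.5%), against 47.7% of all. Of these 20, 3 had a peak at MS in cKO (15.0%, Wilson 95% interval 5.24 to 36.0), against 53.9% of all windows with that ratio. The count was 4 of 20 in SV129 (8.07 to 41.6%), against 72.1%, and 5 of 20 in WT (11.2 to 46.9%), against 77.6%. At RS the counts were 0, 4 and 6 of 20, where 0 in cKO allows up to 15.0% and the intervals were 8.07 to 41.6% in SV129 and 14.5 to 51.9% in WT, against 19.5%, 65.3% and 74.7%. None of the 12 windows with a lower ratio had a peak at MS or RS, which allows a share of up to 25%. Of all windows with a lower ratio, 9.26% had one in cKO, 14.0% in SV129 and 15.4% in WT at MS, and 2.23%, 13.1% and 17.1% at RS, so a difference was not detectable with 12 windows. The windows with a peak were those of Foxj2, Foxj3, Foxk2, Foxp1 and Foxp4 at MS in WT, all on the broad list, and of Foxd2, Foxi3, Foxj2, Foxj3, Foxk2 and Foxp1 at RS. Foxa1, Foxc1, Foxf2, Foxl2 and Foxo3, with ratios of 0.708 to 0.943, had none.

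**Figure D5:**
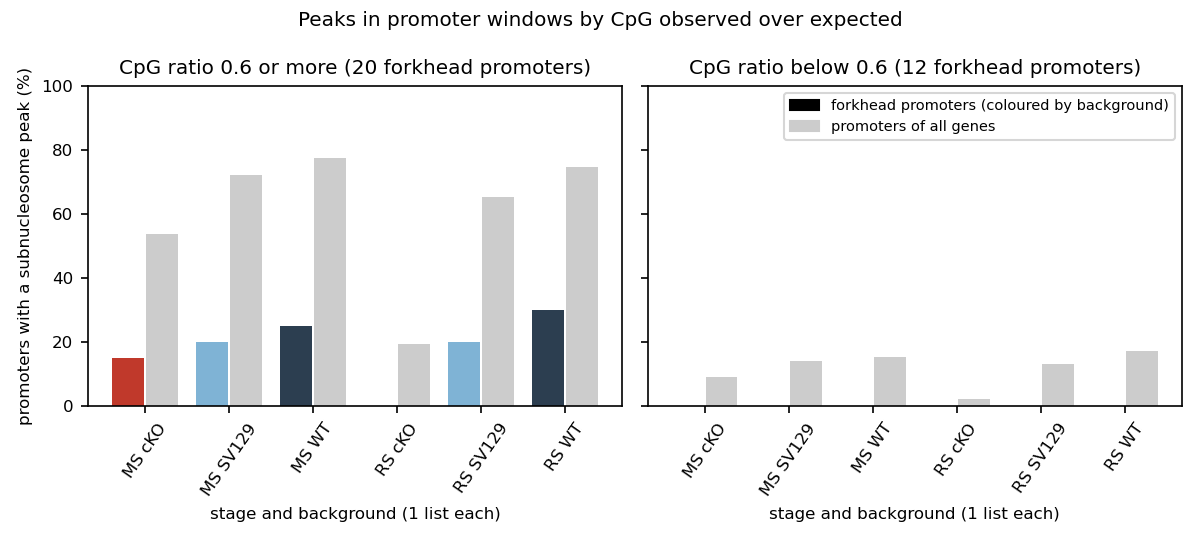
Share of 300-base promoter windows with a subnucleosome peak, in percent, for forkhead genes (coloured by background) and all protein-coding genes (grey), with a CpG observed over expected ratio of 0.6 or more (left) or below it (right). At the higher ratio the forkhead bars at MS stand for 3 of 20 windows in cKO, 4 in SV129 and 5 in WT, against grey bars of 53.9%, 72.1% and 77.6%, and at the lower ratio none of the 12 forkhead windows had a peak.

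Motif letters were searched on both strands. GGGCGG was found in 23 of 32 forkhead windows (71.9%), against 46.2% of all windows, and CCAAT in 14 (43.8%), against 38.2%. TGTTTAC was found in 1 (3.12%, Foxa1), against 3.01% of all windows, TGTTTGC in 2 (6.25%, Foxj3 and Foxp1), against 4.58%, and CACGTG in 1 (3.12%, Foxd3), against 7.84%.

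Forkhead genes were compared with each other by the number of the 24 lists in which both had, or both lacked, an interval at an end. Over 903 pairs the number ran from 9 to 24, with a median of 17.0. Among genes with a peak in some list, Foxp1 and Foxn3, Foxn3 and Foxh1, Foxj3 and Foxj1, and Foxj2 and Foxm1 had the same state in 22 lists. Foxa1, Foxp3 and Foxr1 were the only 3 forkhead genes with neither a peak nor a call at an end in any list (6.98%), against 13.4% of all genes.

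Peaks were also counted at genes that act with forkhead factors or are known targets of them. Of 15 genes of the insulin and PI3K pathway upstream of FOXO, 9 had a peak at MS in cKO, 11 in SV129 and 12 in WT, and 1, 7 and 11 at RS. Of 13 FOXO cofactors and modifiers, 8, 10 and 9 had a peak at MS and 2, 10 and 11 at RS. The acetyltransferase gene Crebbp had 175, 555 and 580 bp at MS and 0, 194 and 349 bp at RS. Of 14 FOXO target genes, 3, 6 and 7 had a peak at MS and 4, 7 and 8 at RS, and Gadd45a, a stress response gene, had 345, 448 and 461 bp at MS and 297, 276 and 422 bp at RS. Of 11 FOXM1 cell cycle targets, 9, 10 and 9 had a peak at MS and 3, 10 and 10 at RS, although Foxm1 itself had none in cKO. Of 11 genes of the FOXJ1 ciliary network, 4, 6 and 6 had a peak at MS and 1, 4 and 4 at RS. The ciliary regulator Rfx2 had 187, 500 and 539 bp at MS and 117, 525 and 538 bp at RS. These lists were read against 33.1%, 45.0% and 47.5% of all genes at MS and 11.2%, 40.1% and 46.5% at RS.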

How the data were processed

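The deposited files were 24 interval lists in mm10 coordinates, 1 subnucleosome and 1 nucleosome list per stage and background; per the file headers and values, peaks carry a deposited score of the authors in the cKO and WT lists, whose scale the sources used here do not give; SV129 peaks have a score of 0 throughout. Peak names in the cKO and WT lists carry the number of 1 library. Per the submitters' processing notes, GRCm38, mm10, STAR 2.5.2a and MACS2 2.1.0.20140616 were used, with no role named; how fragments were divided, how calls were made and how libraries were merged into lists are not given in the sources used here. Read depth is unknown, so no interval for reads can be given. Deposited nucleosome calls are 150 bp long.

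Genes and promoters came from the RefSeq tables of GRCm38.p6, matched by symbol. Intervals were counted within 500 bp of the lower and upper gene end and inside genes, with 1 bp of overlap, using Python 3.11.15, NumPy 2.4.6, pandas 2.3.3 and Matplotlib 3.10.9; the interval code was tested on simulated data. Covered length is the union of intervals in the windows. Wilson 95% intervals cover counting error only, and the limit given for a count of 0 is the share that 3 counts would make.

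The genes named were those with a peak in all backgrounds, those with a sperm peak, those present in both intact lists and not in cKO or the reverse, the germ cell and gonad list, and genes on X. The members, lists and comparisons were chosen with earlier results of these data known. The body peaks, the CpG classes at a ratio of 0.6, the groups by score, the printed promoters and other genes named beyond the rule were chosen after their values were seen. The values of some genes are not reported here, although counts over the 43 genes and over the gene lists include them.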

Additional observations from a re-analysis of the deposited data

Results flagged for a closer look

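The number of forkhead genes whose ends held a nucleosome call moved in opposite directions between stages in the 2 backgrounds with intact Gcn5. At RS against MS the number changed by 2 in SV129 and by -16 in WT, a difference of 18 genes. The share of all genes was 48.5% at RS and 49.7% at MS in SV129, and 45.5% at RS and 57.3% at MS in WT. At ES against RS it changed by -8 in SV129 and by 5 in WT, a difference of -13 genes. The share of all genes at ES was 39.2% in SV129 and 35.7% in WT. With 1 list per group the difference was not tested.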

How the results depend on the processing

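No paired analysis was possible because the lists hold no values per library; for the same reason a fit with a replicate block and leaving out replicates were not run. Forkhead genes had peaks at a lower share than all genes in each MS and RS list under every alternative run, except for WT within 1000 bp at MS, where both shares were 51.2%. For nucleosome calls at ends the order against all genes turned in 1 list of each stage. The SV129 share at MS was 51.2%, against 49.7% of all genes, but below that of all genes with a 200 bp window (39.5%, against 43.9%), with 75 bp of overlap or the interval's centre in the window (46.5%, against 48.8%), without the most common score (41.9%, against 47.7%) and at starts only (40.7%, against 48.6%). The WT share at RS was below that of all genes as reported and above it with 2000 bp (58.1%, against 55.6%). The SV129 share at ES, below that of all genes as reported, was above it with 1000 and 2000 bp (60.5%, against 53.4%, and 81.4%, against 67.5%), without the most common score (37.2%, against 32.6%) and without shared ends (35.1%, against 35%), and the cKO share in sperm was above it with 1000 bp (46.5%, against 44.5%). Inside genes, shares that were above those of all genes for body peaks in SV129 and WT at MS were below them from 1 annotated end to the other (34.9%, against 57%, and 44.2%, against 60.8%). The same held for body calls in SV129 at MS (55.8%, against 62.4%) and RS (65.1%, against 65.3%) and in WT sperm (4.65%, against 7.10%), and in cKO at MS both were 69.8%. Counts that moved follow, with the share of all genes in brackets; the cause was not tested.

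With a window of 200 bp, forkhead genes with calls numbered 13 in cKO (23.2%) and 10 in SV129 (23.5%) at ES, and 7 in cKO (26%) and 0 in WT (3.66%) in sperm, so that 0 were absent from cKO sperm against WT. With 1000 bp, genes with peaks numbered 9 in cKO at MS (35.8%) and 5 in SV129 sperm (23.1%). Genes with calls numbered 26 in SV129 at ES (53.4%) and 20 in cKO (44.5%) and 2 in SV129 (7.45%) sperm, and 6 of the WT genes at MS had no call in cKO (18.3%). With 2000 bp, genes with peaks numbered 12 in cKO (38.7%) and 23 in WT (55.5%) at MS, 19 in SV129 (46.6%) and 22 in WT (54.8%) at RS, and 7 in SV129 sperm (25.4%). Genes with calls numbered 28 in cKO (47.8%) and 25 in WT (55.6%) at RS, 34 in cKO (65.9%), 35 in SV129 (67.5%) and 40 in WT (67.3%) at ES, and 23 in cKO (56.6%), 2 in SV129 (8.22%) and 2 in WT (6.14%) in sperm.

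At the starts of the 27 genes with a known strand, genes with peaks numbered 2 in cKO (33.2%), 5 in SV129 (44.4%) and 6 in WT (47.1%) at MS, 5 in SV129 (40.1%) and 8 in WT (46.1%) at RS, and 1 in SV129 sperm (21.5%). Genes with calls numbered 16 in cKO (48.7%), 11 in SV129 (48.6%) and 16 in WT (54.9%) at MS, 8 (26.9%), 14 (46.6%) and 7 (44.2%) at RS, 11 (27.8%), 5 (28.7%) and 9 (25.3%) at ES, and 5 in cKO sperm (29.8%). Without shared ends, 1 of 37 in cKO (27.1%) and 8 in SV129 (37.8%) had a peak at MS, 7 in SV129 at RS (33%), and 0 had a call in SV129 sperm (5.44%).

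With the better-scoring 50% of each list, 8 genes had a peak in WT at MS (37.3%) and 0 in cKO at RS (5.41%), and 5 of the 8 had none in cKO (45.3%). With the top-scoring WT peaks, as many as cKO had, 8 genes had a WT peak at MS (35.4%) and 0 at RS (9.13%), of which 4 (15.0%) and 0 had none in cKO. Without calls of the most common score, 7 genes had a call in cKO sperm (23.6%). From 1 annotated end to the other in place of the body, 1 gene had a peak in cKO (10.8%) and 13 in SV129 (51.5%) at RS. Read depth is unknown, so how far a list depends on its libraries was not measured.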
